A study of Hordeum vulgare with 10 samples.

Results

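The membrane proteins that move water and mineral nutrients into and through barley roots were examined at the transcript level after treatment with ergosterol or with lipids of the root endophyte *Serendipita indica*. Transcripts were taken where the description in the deposited table held the word aquaporin, or nitrate, phosphate, ammonium or sulfate followed by transporter, and each transcript was counted once. This gave 146 transcripts of 137 loci among the 37962 distinct transcripts of the table. They comprised 44 water channels and 102 nutrient transporters, of which 38 were described as nitrate, 39 as phosphate, 8 as ammonium and 17 as sulfate transporters. The match was made on words alone, so the phosphate group also held transcripts described as triose-phosphate or glycerol-3-phosphate transporters, which are described apart.

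The RNA came from roots of 7-d-old wild-type seedlings of *Hordeum vulgare* cv Golden Promise. Roots were cut into short pieces without the tip, rested overnight in MES buffer, and treated for 2 h with the solvent control (3 libraries), with 250 nM ergosterol (3 libraries) or with the *S. indica* lipid extract, diluted to 1 : 160 (4 libraries). All 3 treatments held methanol, diluted to 1 : 40, and each replicate combined the pieces of a pair of wells. The samples are therefore excised pieces, cut off from the shoot, in a buffer to which the labels name no added nitrate, phosphate, ammonium or sulfate, and responses are relative to that state.

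Aquaporins are channels that let water, and in some members small neutral solutes, pass through the plasma membrane and the tonoplast. In roots they set much of the cell-to-cell part of water uptake. Nitrate and ammonium transporters carry the main inorganic nitrogen sources, and phosphate and sulfate transporters carry the sources of phosphorus and sulfur, mostly by coupling uptake to protons. Many of them are known to respond at the transcript level to the supply of their own nutrient.

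Abundance is given as TPM, a length-corrected share of all transcripts of a library, scaled to a sum of 1000000. Between 17960 and 18653 transcripts reached 1 TPM in a library. The depth of the libraries cannot be read from TPM, and precision was judged only by how far replicate libraries lay apart. The labels do not say whether replicates came from separately grown plants, so that *p*-values measure the spread between these samples. Words that mark green tissue matched 11 transcripts, 6 of them listed at 0 in every library, and their summed level was 3.08 to 7.71 TPM in the solvent control, 3.35 to 4.05 TPM upon ergosterol and 3.22 to 5.64 TPM upon *S. indica* lipids. No description held the words chosen for the root endodermis.

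A transcript was tested where its mean over the 10 libraries was at least 1 TPM, which held for 77 of the 146 members, each of which also averaged 1 TPM or more in the solvent control. The test was limma on log2(TPM + 1) in a single fit of all libraries, and the Benjamini-Hochberg adjustment covered the 18330 transcripts tested. Rose and fell are used for an adjusted *p* of at most 0.05. A log2 fold change (log2FC) is a difference of group means of log2(TPM + 1) against the solvent control, given with its standard error (SE), and this scale understates the change of transcripts of low abundance. Identifiers start with HORVU.MOREX.r3., which is left out of the rest of the text.

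Of the 44 water channels, 26 were tested, 18 were below the minimum, and 8 of the 18 were listed at 0 in every library. The tested ones spanned means of 1.32 to 2854 TPM in the solvent control, with a median of 52.8 TPM, and 9 of them reached 100 TPM. The highest mean among the 18 others was 0.828 TPM. A single transcript, 4HG0407580.1, was the 36th most abundant of all transcripts in the solvent control and held 53.4% of the summed TPM of the 44 water channels. Together with the next 5 it held 81.8%.

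The order of these 6 levels in the solvent control was 4HG0407580.1 with 2854 ± 300 TPM (SD, n = 3), 7HG0711310.1 with 414 ± 3.90 TPM, 2HG0182400.1 with 372 ± 52.8 TPM, 6HG0631700.1 with 323 ± 31.2 TPM, 2HG0188290.1 with 257 ± 35.2 TPM and 3HG0330200.1 with 154 ± 18.6 TPM. The first stood far above the rest. The next 4 formed a graded series in which 2HG0182400.1 was within 1 SD of its own of both neighbours, and 3HG0330200.1 lay below all libraries of the others. All 6 are described only as aquaporin, so no subfamily is assigned here.

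The water channels that passed the test all fell. Upon ergosterol, 5 of the 26 fell and none rose, beside 0.458% of all transcripts tested that fell and 2.85% that rose. Upon *S. indica* lipids, 4 of the 26 fell and none rose, beside 0.584% and 3.29% of all transcripts tested. The 4 were among the 5 that fell upon ergosterol, and both comparisons share the solvent control libraries. Each fall was smaller than 1 on the log2 scale, the limit that the study set on its own log2FC and combined with its test. Without adjustment, 14 and 9 of the 26 had a *p* under 0.05 in either direction, beside 19.7% and 15.3% of all transcripts tested. In bulk tissue, fewer cells of a type and less RNA per cell cannot be told apart.

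The most abundant water channel, 4HG0407580.1, was at 2862, 2550 and 3150 TPM in the solvent control libraries, at 1777, 2131 and 1891 TPM upon ergosterol and at 1861, 2159, 2219 and 2102 TPM upon *S. indica* lipids. All 7 treated libraries lay below all 3 solvent control libraries. It fell by 0.56 on the log2 scale upon ergosterol (limma, adjusted *p* = 0.0252, SE 0.12), which is 0.678 of the control level, and by 0.45 upon *S. indica* lipids (adjusted *p* = 0.0452, SE 0.11), or 0.732 of it. Of 21 refits with another setting or with 1 library left out, 14 kept the call upon ergosterol and 7 that upon *S. indica* lipids. The latter was lost without any single *S. indica* lipid library (limma, adjusted *p* up to 0.0927) and without solvent control replicate 1 (0.125) or 3 (0.196) or ergosterol replicate 1 (0.0632) or 3 (0.0766). It was also lost with no minimum abundance (0.370), median-ratio scaling (0.143), quantile normalization (0.0798), the replicate block (0.112), only the groups compared (0.0886) or no variance trend (0.0661). The call upon ergosterol was lost without solvent control replicate 1 (0.0689) or 3 (0.114) or ergosterol replicate 1 (0.123) or 3 (0.105). No minimum abundance (0.234), median-ratio scaling (0.103) and only the groups compared (0.0649) lost it too.

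The loci 6HG0631700 and 6HG0631710 carry consecutive numbers and their transcripts moved alike. 6HG0631700.1 was at 290, 328 and 351 TPM in the solvent control, at 211, 244 and 234 TPM upon ergosterol and at 217, 250, 241 and 234 TPM upon *S. indica* lipids. Its less abundant neighbour 6HG0631710.1 was at 53.9, 61.1 and 57.4 TPM in the solvent control, at 40.3, 43.3 and 40.7 TPM upon ergosterol and at 40.7, 41.8, 36.7 and 42.4 TPM upon *S. indica* lipids. In both, no treated library reached the lowest solvent control library. The former fell by 0.49 (adjusted *p* = 0.0221, SE 0.10) and 0.45 (adjusted *p* = 0.0193, SE 0.09) on the log2 scale upon ergosterol and *S. indica* lipids, and the latter by 0.46 (adjusted *p* = 0.0176, SE 0.09) and 0.50 (adjusted *p* = 0.00655, SE 0.08), all by limma. Of 21 refits, 13 and 18 kept the calls of 6HG0631700.1 upon ergosterol and *S. indica* lipids, and 17 and 21 those of 6HG0631710.1. How reads were divided between such copies, if they are nearly identical, is not visible in TPM, and values of members with similar sequences are uncertain to that extent.

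7HG0711310.1, the runner-up in abundance, was at 409, 417 and 415 TPM in the solvent control, at 301, 363 and 287 TPM upon ergosterol and at 318, 318, 306 and 322 TPM upon *S. indica* lipids. The solvent control and *S. indica* lipid libraries each spanned a narrow range, while the ergosterol libraries scattered more. It fell by 0.39 on the log2 scale upon either treatment (SE 0.09 in both, adjusted *p* = 0.0476 upon ergosterol and 0.0303 upon *S. indica* lipids, limma). Both calls were close to the threshold. Of 21 refits, 7 kept the call upon ergosterol and 9 that upon *S. indica* lipids. Of the 10 refits that left out 1 library, only that without ergosterol replicate 2 kept the former, and only those without ergosterol replicate 2 or 3 kept the latter, with adjusted *p* of up to 0.189 and 0.111 in the others. With the replicate block both were lost (adjusted *p* = 0.0699 and 0.0830).

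The transcript 3HG0330200.1 fell upon ergosterol and did not pass upon *S. indica* lipids. It was at 165, 133 and 165 TPM in the solvent control, at 109, 110 and 98.3 TPM upon ergosterol and at 130, 156, 153 and 132 TPM upon *S. indica* lipids. The ergosterol libraries lay below all other libraries, and the *S. indica* lipid libraries overlapped with the solvent control. The log2FC was −0.53 upon ergosterol (limma, adjusted *p* = 0.0313, SE 0.11) and −0.10 upon *S. indica* lipids (adjusted *p* = 0.709, SE 0.11). In the direct comparison, the ergosterol libraries were lower than the *S. indica* lipid libraries by 0.43 on the log2 scale, with a 95% interval of −0.66 to −0.19, and this difference did not pass the adjustment over all transcripts (limma, adjusted *p* = 0.696).

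**Figure D1:**
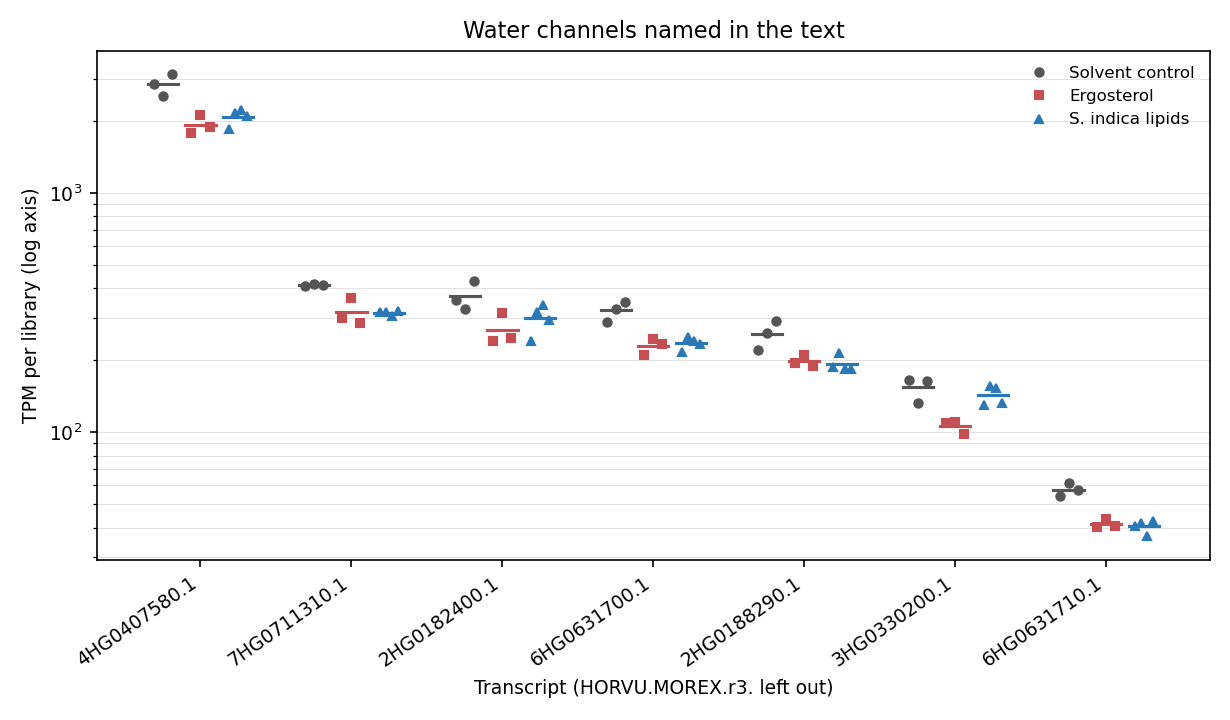
TPM of the 7 water channels chosen by the naming rule, on a log axis, with 1 point per library and a line at the group mean for the solvent control, ergosterol and *S. indica* lipids. In 6HG0631700.1, 6HG0631710.1, 7HG0711310.1, 2HG0188290.1 and 4HG0407580.1 all treated points lie below all solvent control points, and in 3HG0330200.1 this holds for the ergosterol points.

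The remaining abundant water channels had values in the same direction that did not pass the test. 2HG0182400.1 was at 357, 329 and 431 TPM in the solvent control, at 241, 314 and 248 TPM upon ergosterol and at 242, 320, 339 and 296 TPM upon *S. indica* lipids, with log2FC of −0.47 (adjusted *p* = 0.129, limma) and −0.32 (adjusted *p* = 0.323). 2HG0188290.1 was at 221, 261 and 291 TPM in the solvent control, at 194, 211 and 190 TPM upon ergosterol and at 188, 214, 184 and 185 TPM upon *S. indica* lipids, with log2FC of −0.37 (adjusted *p* = 0.108) and −0.41 (adjusted *p* = 0.0556). In the former the *S. indica* lipid libraries overlapped with the solvent control, and in the latter all treated libraries were lower.

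The median log2FC of the abundant water channels was below that of the others, a difference that was not tested. All 9 that reached 100 TPM in the solvent control had a log2FC below 0 in both comparisons, with medians of −0.39 upon ergosterol and −0.32 upon *S. indica* lipids. Among the 17 tested below 100 TPM, 11 were below 0 upon ergosterol and 10 upon *S. indica* lipids, with medians of −0.15 and −0.03. Over all 26, the median log2FC was −0.21 upon ergosterol and −0.14 upon *S. indica* lipids, beside −0.08 and −0.04 over all transcripts tested. A log2FC below 0 was found for 20 and 19 of the 26, or 76.9% and 73.1%, beside 63.1% and 58.8% of all transcripts tested. This is a description of a list, and no test was made over it.

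All ergosterol libraries lay below all solvent control libraries in 14 of the 26 water channels and above them in 2, beside 17% and 9.09% of all transcripts tested. For the *S. indica* lipid libraries this was the case in 7 and 0 water channels, beside 6.4% and 6.85% of all transcripts tested. The 2 with higher ergosterol libraries did not pass the test. 5HG0502200.1 was at 47.7, 52.8 and 44.1 TPM in the solvent control, at 68.2, 63.4 and 68.4 TPM upon ergosterol and at 52.7, 47.5, 45.5 and 69.2 TPM upon *S. indica* lipids, so that 1 *S. indica* lipid library was as high as the ergosterol libraries. Its log2FC was 0.46 (adjusted *p* = 0.118, limma) and 0.14 (adjusted *p* = 0.685). 4HG0412910.1, described as aquaporin-like protein, had log2FC of 0.49 (adjusted *p* = 0.188) and 0.11 (adjusted *p* = 0.814).

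The lowest log2FC of any water channel were found at moderate abundance and did not pass the test. 2HG0189670.1, described as aquaporin-like protein, was at 13.1, 8.82 and 14.2 TPM in the solvent control, at 6.73, 3.98 and 6.39 TPM upon ergosterol and at 8.17, 13.1, 7.09 and 4.89 TPM upon *S. indica* lipids, with log2FC of −0.96 (adjusted *p* = 0.117, limma) and −0.53 (adjusted *p* = 0.401). 6HG0600910.1 was at 25.5, 16.0 and 21.0 TPM in the solvent control, at 12.7, 11.5 and 11.9 TPM upon ergosterol and at 16.4, 26.1, 19.5 and 19.5 TPM upon *S. indica* lipids, with log2FC of −0.72 (adjusted *p* = 0.0596) and −0.03 (adjusted *p* = 0.962). The 3 ergosterol libraries of 6HG0600910.1 lay below all other libraries. These transcripts, and both with higher ergosterol libraries, were singled out after their values were seen.

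Summed over the 44 transcripts, water channels took up 5215, 5038 and 5794 TPM in the solvent control, 3715, 4235 and 3804 TPM upon ergosterol and 3774, 4350, 4299 and 4199 TPM upon *S. indica* lipids. The means of 5349 ± 395 TPM (SD, n = 3), 3918 ± 278 TPM (n = 3) and 4156 ± 262 TPM (n = 4) correspond to a change of −26.8% upon ergosterol and −22.3% upon *S. indica* lipids, and no treated library reached the solvent control range. Without 4HG0407580.1 the sums were 2354 to 2644 TPM in the solvent control, 1913 to 2104 TPM upon ergosterol and 1913 to 2191 TPM upon *S. indica* lipids, again without overlap. The share of 4HG0407580.1 in the sum was 49.3% upon ergosterol and 50.2% upon *S. indica* lipids.

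**Figure D2:**
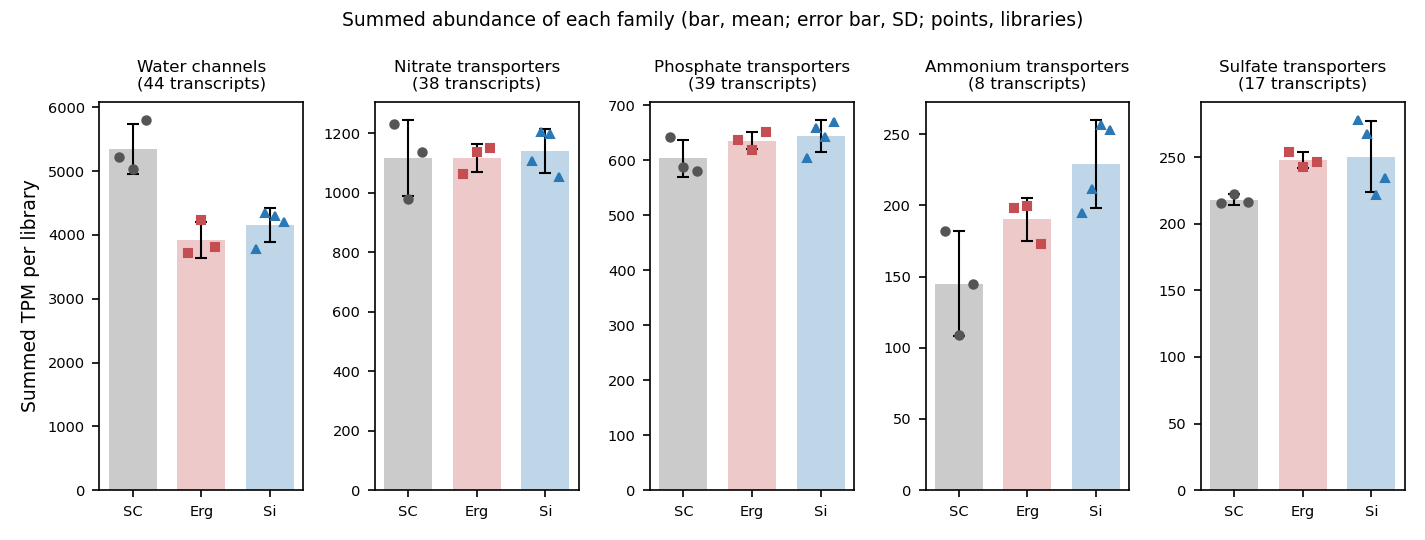
Summed TPM per library for the water channels and each family of nutrient transporters in the solvent control (SC), ergosterol (Erg) and *S. indica* lipid (Si) libraries, with axes from 0. Bars are means, error bars are SD and points are libraries, and the water channel sums are 5038 to 5794 TPM in the solvent control against 3715 to 4350 TPM in the treated libraries, while nitrate and phosphate transporter sums overlap.

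Calls among water channels depended on single libraries and on scaling, while the direction of each called transcript was the same in every refit. Without ergosterol replicate 1, ergosterol replicate 3 or solvent control replicate 3, limma called 0 water channels upon ergosterol. With these libraries left out in turn, 14, 13 and 12 had an unadjusted *p* under 0.05 (limma). Of all transcripts tested, 0.115%, 0.12% and 0.125% were then called lower, beside 0.458% in the main fit. Without solvent control replicate 1, 3 water channels were called, beside 0.371% of all transcripts tested called lower. Upon *S. indica* lipids, 1 was called without solvent control replicate 3, beside 0.267% of all transcripts tested called lower. Without solvent control replicate 2, ergosterol replicate 1 or any single *S. indica* lipid library, 2 were called. Of all transcripts tested, 0.36% to 0.529% were called lower in these refits, beside 0.584% in the main fit. Median-ratio scaling left 1 upon ergosterol and 2 upon *S. indica* lipids, beside 0.284% and 0.502% of all transcripts tested called lower. Of the water channels called upon ergosterol without solvent control replicate 2 or *S. indica* lipid replicate 4, 1 was higher than the solvent control. 6HG0631710.1 upon *S. indica* lipids was past the test in every refit.

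Markers of dividing cells had lower values in the ergosterol group. The words cyclin B, histone H3 and histone H4 matched 105 transcripts, 11 of them listed at 0 in every library, with summed levels of 3896 to 4830 TPM in the solvent control, 3453 to 4200 TPM upon ergosterol and 3836 to 4791 TPM upon *S. indica* lipids. Of 74 tested, none passed the limma test in either comparison with the solvent control. Upon ergosterol 64 had a log2FC below 0, with a median of −0.52, and upon *S. indica* lipids 27 did, with a median of 0.09. Over all transcripts tested, 63.1% and 58.8% were below 0. Without adjustment, 15 and 7 of the 74 had a *p* under 0.05, beside 19.7% and 15.3% of all transcripts tested, so these counts were close to or below those of transcripts in general. Between ergosterol and *S. indica* lipids directly, 26 of the 74 had an unadjusted *p* under 0.05 (limma), beside 5.32% of all transcripts tested. None passed there, 65 were lower upon ergosterol, and the median difference was −0.60. The part of these markers in the water channel values was not tested.

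The nutrient transporters that passed the test all rose. Of the 102, 51 were tested and 51 were below the minimum, of which 27 were listed at 0 in every library. Upon ergosterol, 5 of the 51 rose and none fell, beside 2.85% and 0.458% of all transcripts tested, and upon *S. indica* lipids 7 rose and none fell, beside 3.29% and 0.584%. The 5 were among the 7, and without adjustment 15 and 16 of the 51 had a *p* under 0.05 in either direction, beside 19.7% and 15.3% of all transcripts tested. The study set limits of 0.05 and 1 on a q-value from sleuth and on its own log2FC. Here the same limits were set on the adjusted *p* of limma and the log2FC of log2(TPM + 1), so the counts are not those of the study. They were met by 2 upon ergosterol and 3 upon *S. indica* lipids, beside 1.16% and 1.17% of all transcripts tested. The median log2FC of the 51 was 0.10 upon ergosterol and 0.17 upon *S. indica* lipids, and 32 were above 0 in each comparison.

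Each of the 4 families held at least 1 member that rose upon both treatments, but the counts per family were small. Upon ergosterol, 2 of 15 tested nitrate, 1 of 22 phosphate, 1 of 5 ammonium and 1 of 9 sulfate transporters rose. Upon *S. indica* lipids 2, 2, 2 and 1 of them rose, beside 2.85% and 3.29% of all transcripts tested. The phosphate count upon ergosterol is close to that share. All ergosterol libraries lay above all solvent control libraries in 10 of the 51 and below them in 5, beside 9.09% and 17% of all transcripts tested. For the *S. indica* lipid libraries this was the case in 11 and 0, beside 6.85% and 6.4%. Summed TPM of the 102 transcripts were 1899 to 2269 in the solvent control, 2152 to 2219 upon ergosterol and, for *S. indica* lipids, 2180 to 2343, so the sums overlapped.

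Nitrate transporters fall into the NRT1 group, which in *Arabidopsis thaliana* includes the dual-affinity transporter and nitrate sensor NRT1.1, and the high-affinity NRT2 group. Of the 38, 15 were tested, with 14 of the other 23 listed at 0 in every library. Those described as nitrate transporter 1.2 had 5 tested and 1 that rose in each comparison. Those described as high affinity had 7 tested and 1 that rose, beside 2.85% and 3.29% of all transcripts tested upon ergosterol and *S. indica* lipids. Those described as nitrate transporter 1.1 had 3 tested, none of which passed. An unadjusted *p* under 0.05 (limma) was found for 1 of these 3 in each comparison, beside 19.7% and 15.3% of all transcripts tested. The log2FC of the 3 ranged from −0.27 to −0.20 in the ergosterol comparison and from −0.41 to −0.02 in that of *S. indica* lipids.

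2HG0177990.1, described as nitrate transporter 1.2, was at 6.43, 9.27 and 8.85 TPM in the solvent control, at 15.5, 15.5 and 23.8 TPM upon ergosterol and at 17.4, 18.9, 16.3 and 21.3 TPM upon *S. indica* lipids. Every treated library was above every solvent control library. The log2FC was 1.06 (limma, adjusted *p* = 0.0102, SE 0.18) and 1.09 (adjusted *p* = 0.00469, SE 0.17), or 2.08-fold and 2.13-fold on the log2(TPM + 1) scale. Locus 2HG0177980, just before it in number, also had a transcript with higher values in all treated libraries, 8.04 to 16.1 TPM upon ergosterol and 9.27 to 12.2 TPM upon *S. indica* lipids against 3.81 to 7.96 TPM, and did not pass, with log2FC of 0.88 (adjusted *p* = 0.102) and 0.78 (adjusted *p* = 0.126).

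6HG0543380.1, described as high affinity nitrate transporter, was at 8.24, 4.62 and 6.57 TPM in the solvent control, at 15.5, 11.1 and 13.6 TPM upon ergosterol and at 21.2, 15.2, 17.0 and 12.5 TPM upon *S. indica* lipids. The groups did not overlap. Its log2FC was 0.96 (limma, adjusted *p* = 0.0378, SE 0.22) upon ergosterol and 1.23 (adjusted *p* = 0.00614, SE 0.20) upon *S. indica* lipids, the highest log2FC of any nutrient transporter tested there. The transcripts 6HG0543390.1 and 6HG0543410.1, with similar locus numbers and the same description, had log2FC of 0.12 and 0.07 upon ergosterol and 0.21 and 0.19 upon *S. indica* lipids and did not pass.

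The abundant nitrate transporters did not pass the test. 6HG0591170.1, described as high affinity, had the highest level of all nutrient transporters and was at 548, 361 and 435 TPM in the solvent control, at 448, 483 and 499 TPM upon ergosterol and at 483, 503, 505 and 403 TPM upon *S. indica* lipids. The solvent control libraries alone spanned a wider range than all treated libraries. The log2FC was 0.11 with a 95% interval of −0.21 to 0.43 upon ergosterol and 0.09 with an interval of −0.20 to 0.39 upon *S. indica* lipids. 1HG0056390.1, described as nitrate transporter 1.1, had means of 185, 161 and 178 TPM (solvent control, ergosterol, *S. indica* lipids), with SD of 20.4, 19.1 and 20.8, and intervals of the log2FC of −0.48 to 0.08 and −0.32 to 0.21.

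The summed TPM of the 38 nitrate transporters were 980 to 1230 in the solvent control, 1063 to 1150 upon ergosterol and, for *S. indica* lipids, 1053 to 1205, with full overlap.

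Among the phosphate transporters, 22 of 39 were tested. The 12 tested members described only as phosphate transporter or phosphate transporter protein included 1 that rose upon ergosterol and 2 that rose upon *S. indica* lipids. Of all transcripts tested, 2.85% and 3.29% rose. None passed among 4 described as triose-phosphate transporter family protein, 3 glycerol-3-phosphate transporters, 2 PHO1-like proteins and 1 sodium-dependent transporter. Of these groups, 2, 1, 0 and 0 had an unadjusted *p* under 0.05 (limma) upon ergosterol and 1, 1, 0 and 1 upon *S. indica* lipids. Over all transcripts tested, 19.7% and 15.3% did. PHO1 of *A. thaliana* exports phosphate towards the xylem.

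5HG0523050.1, described as phosphate transporter, was at 36.9, 59.4 and 48.6 TPM in the solvent control, at 91.5, 83.5 and 105 TPM upon ergosterol and at 84.7, 99.1, 104 and 123 TPM upon *S. indica* lipids. Every treated library exceeded the highest solvent control library. It rose with log2FC of 0.96 (limma, adjusted *p* = 0.0136, SE 0.18) and 1.09 (adjusted *p* = 0.00385, SE 0.16), a 1.94-fold and 2.12-fold difference on the log2(TPM + 1) scale. By mean TPM it came next after 5HG0529600.1 among the phosphate transporters in both treatments.

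1HG0074210.1 stood at the limit of the test. It was at 10.1, 12.9 and 11.1 TPM in the solvent control, at 17.2, 15.8 and 18.6 TPM upon ergosterol and at 15.7, 17.6, 14.3 and 19.9 TPM upon *S. indica* lipids, without overlap between the solvent control and treated libraries. The log2FC was 0.57 upon ergosterol (limma, adjusted *p* = 0.0507, SE 0.14) and 0.53 upon *S. indica* lipids (adjusted *p* = 0.0452, SE 0.13), so that nearly equal differences fell on either side of the threshold.

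The most abundant phosphate transporter, 5HG0529600.1, was at 290, 182 and 235 TPM in the solvent control, at 200, 218 and 195 TPM upon ergosterol and at 201, 221, 251 and 206 TPM upon *S. indica* lipids. All treated libraries lay within the range of the solvent control. The 95% intervals of its log2FC were −0.52 to 0.15 and −0.39 to 0.23. The sodium-dependent 3HG0282010.1 had means of 84.2 ± 10.1, 82.5 ± 14.1 and 67.7 ± 6.88 TPM ± SD (solvent control, ergosterol, *S. indica* lipids), with log2FC of −0.03 (adjusted *p* = 0.924) and −0.31 (adjusted *p* = 0.278).

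Ammonium transporters were the family with the highest median log2FC of the 4, 0.61 upon ergosterol and 0.77 upon *S. indica* lipids over 5 tested of 8. The most abundant, 2HG0180820.1, was at 99.9, 63.1 and 82.6 TPM in the solvent control, at 126, 128 and 116 TPM upon ergosterol and at 128, 142, 165 and 163 TPM upon *S. indica* lipids. All treated libraries were above the solvent control libraries. Its log2FC was 0.88 upon *S. indica* lipids (limma, adjusted *p* = 0.00614, SE 0.14), where it rose, and 0.61 upon ergosterol (adjusted *p* = 0.0637, SE 0.15), where it did not pass. The difference between both treatments was −0.27 on the log2 scale, with a 95% interval of −0.59 to 0.05.

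1HG0072140.1 was at 14.9, 10.8 and 14.2 TPM in the solvent control, at 23.8, 22.7 and 21.7 TPM upon ergosterol and at 19.0, 22.5, 27.7 and 27.3 TPM upon *S. indica* lipids. The groups did not overlap, and it rose upon both treatments with log2FC of 0.74 (limma, adjusted *p* = 0.0295, SE 0.16) and 0.81 (adjusted *p* = 0.0111, SE 0.15). By contrast, 6HG0595580.1 was at 49.4, 23.8 and 36.9 TPM in the solvent control, at 29.0, 26.7 and 19.8 TPM upon ergosterol and at 28.0, 29.5, 39.9 and 35.7 TPM upon *S. indica* lipids, with log2FC of −0.48 (adjusted *p* = 0.291) and −0.09 (adjusted *p* = 0.887). Its solvent control libraries spanned the treated ones except for 1 ergosterol library. The summed TPM of the 8 transcripts were 109 to 182 in the solvent control, 173 to 200 upon ergosterol and, for *S. indica* lipids, 195 to 257, so that the *S. indica* lipid libraries lay above the solvent control.

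Sulfate transporters had 9 of 17 members tested, all with a log2FC above 0 in both comparisons, the lowest at 0.04 and 0.03. Over all transcripts tested, 63.1% and 58.8% were below 0. Of the 9, 3 are transcripts of the single locus 5HG0469250, so they are not separate genes. The medians were 0.14 upon ergosterol and 0.19 upon *S. indica* lipids, and 1 member rose upon either treatment. 5HG0484810.1, described as sulfate transporter 1, was at 1.98, 1.94 and 1.23 TPM in the solvent control, at 6.68, 3.35 and 4.97 TPM upon ergosterol and at 4.66, 3.39, 3.97 and 5.00 TPM upon *S. indica* lipids. No treated library overlapped with the solvent control, although the transcript was of low abundance throughout. The log2FC was 1.12 (limma, adjusted *p* = 0.0192, SE 0.22) and 0.95 (adjusted *p* = 0.0256, SE 0.21).

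The abundant sulfate transporters did not pass the test. 4HG0399840.1 had means of 136 ± 8.68, 150 ± 4.18 and 149 ± 23.9 TPM ± SD (solvent control, ergosterol, *S. indica* lipids), and 2HG0212270.1 had 33.2 ± 6.01, 33.9 ± 1.48 and 40.3 ± 5.56 TPM. The 95% intervals of the log2FC of the former were −0.14 to 0.41 and −0.14 to 0.37, and those of the latter −0.29 to 0.37 and −0.03 to 0.58. The summed TPM of the family were 215 to 223 in the solvent control, 243 to 254 upon ergosterol and, for *S. indica* lipids, 222 to 278, so that the ergosterol libraries lay above the solvent control and the *S. indica* lipid libraries overlapped with it at their lower end.

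**Figure D3:**
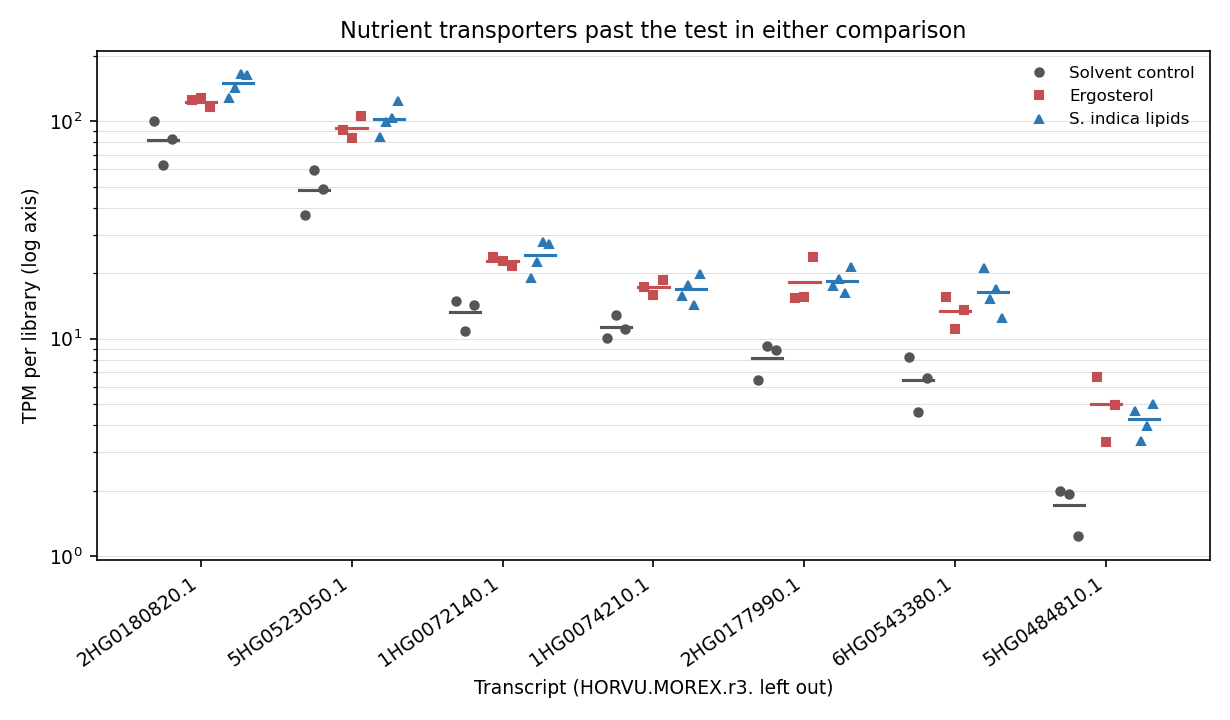
TPM of the 7 nutrient transporters past the test in either comparison, on a log axis, with 1 point per library and a line at the group mean. In all 7, each ergosterol and each *S. indica* lipid library lies above each solvent control library, at levels from about those of 5HG0484810.1 (1.23 to 6.68 TPM) to those of 2HG0180820.1 (63.1 to 165 TPM).

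Calls among nutrient transporters upon *S. indica* lipids were 5 to 8 when any single library was left out. Of all transcripts tested, 2.02% to 3.24% were then called higher, beside 3.29% in the main fit. Upon ergosterol the calls were 1 without ergosterol replicate 1, ergosterol replicate 3 or solvent control replicate 3, and 4 to 7 without any other library. In the former refits 1.39%, 1.54% and 1.48% of all transcripts tested were called higher, and in the others 1.89% to 2.96%. The main fit had 2.85%. 2HG0177990.1 and 5HG0523050.1 upon *S. indica* lipids were past the test in every refit. 2HG0177990.1 upon ergosterol was past it in every refit but the one with no minimum abundance (limma, adjusted *p* = 0.0649). Every other call was lost in at least 1 refit. Upon ergosterol, 12 of 21 refits kept that of the high affinity nitrate transporter that rose. For 1HG0072140.1 and 5HG0523050.1, 14 and 17 of 21 did, and 15 of 20 for 5HG0484810.1. Upon *S. indica* lipids, 9 of 21 kept that of 1HG0074210.1 and 13 of 20 that of 5HG0484810.1. Of 21, 19 kept that of 1HG0072140.1 and 20 those of 2HG0180820.1 and the high affinity nitrate transporter. The values for dividing cell markers given with the water channels hold here too, and their part in these results was not tested.

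**Figure D4:**
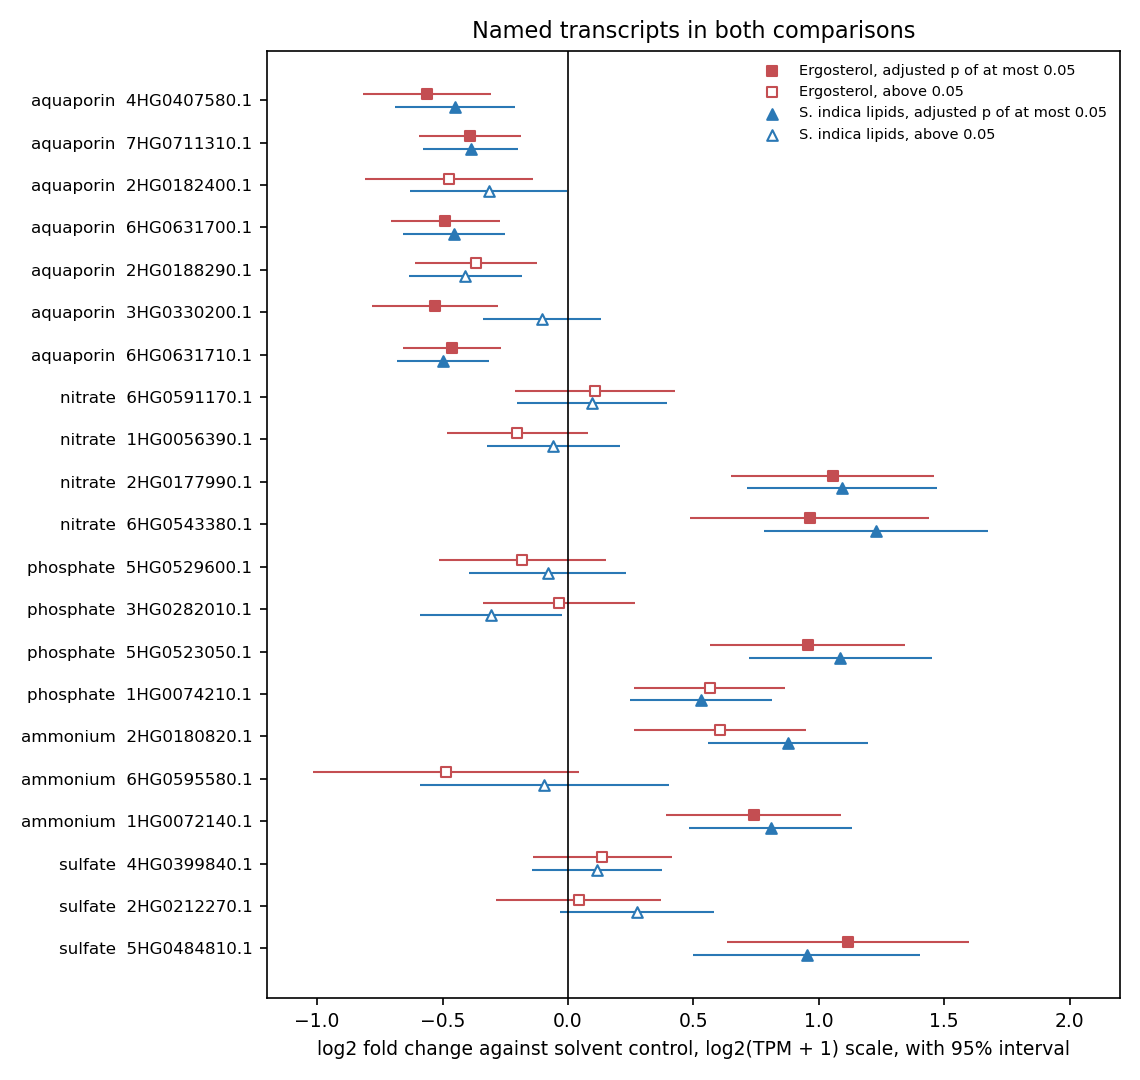
Log2FC against the solvent control with 95% intervals for the 21 transcripts chosen by the naming rule, squares for ergosterol and triangles for *S. indica* lipids, filled where the adjusted *p* was at most 0.05. The 7 water channels lie at −0.56 to −0.10, the transporters that passed lie at 0.53 to 1.23, and intervals of ergosterol and *S. indica* lipids overlap for each transcript.

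**Figure D5:**
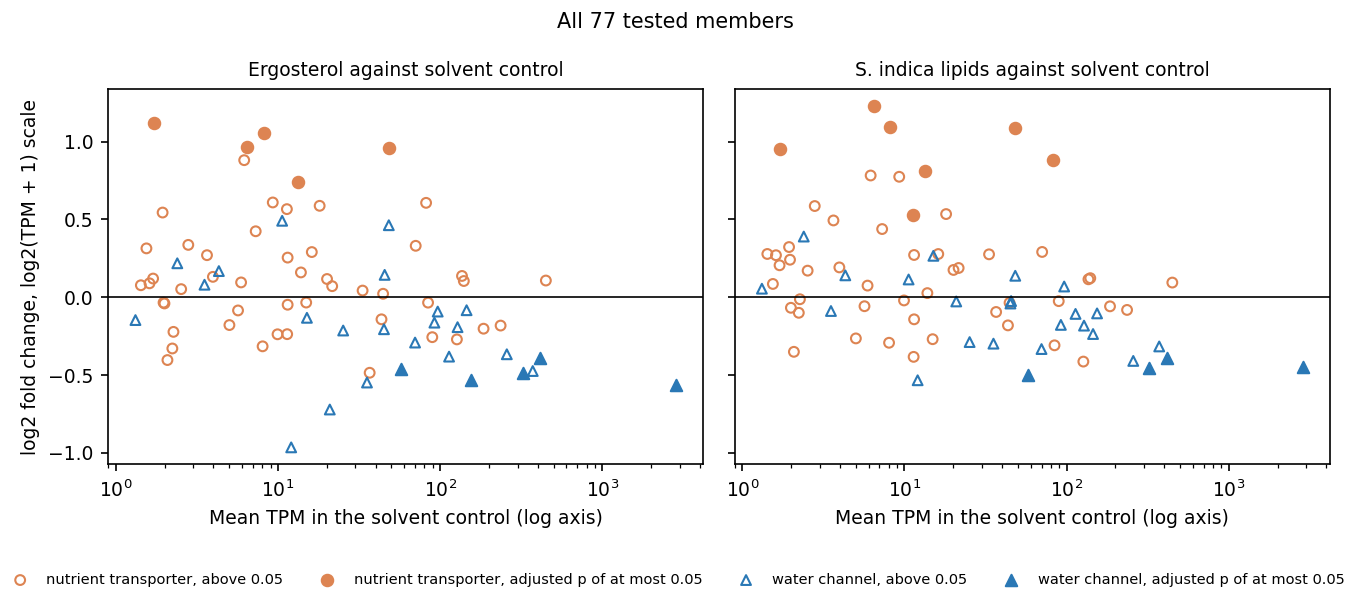
Log2FC against the mean TPM in the solvent control on a log axis for all 77 tested members, with ergosterol on the left and *S. indica* lipids on the right, and filled symbols for an adjusted *p* of at most 0.05. Water channels that reached 100 TPM all lie below 0, and nutrient transporters past the test lie between means of 1.72 and 81.8 TPM. The solvent control values enter both axes.

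Compared directly, both treatments differed past the test in none of the 77 members, beside 0.00546% of all transcripts tested. Without adjustment, limma gave a *p* under 0.05 for 4 of 26 water channels and 1 of 51 nutrient transporters, beside 5.32% of all transcripts tested. Differences ranged from −0.69 to 0.38 on the log2 scale among water channels and from −0.39 to 0.27 among nutrient transporters, and the lowest adjusted *p* was 0.696. The lowest difference was that of 6HG0600910.1, with −0.69 and a 95% interval of −1.07 to −0.32. For 4HG0407580.1 the interval was −0.35 to 0.13, for 7HG0711310.1 −0.19 to 0.19, for 2HG0177990.1 −0.41 to 0.34 and for 5HG0523050.1 −0.49 to 0.23. These intervals do not show that both treatments acted alike.

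For comparison, 7 groups of related genes were chosen by words in the descriptions and counted. None of 17 tested transcripts of nitrate assimilation (nitrate and nitrite reductase, glutamine synthetase, glutamate synthase) passed in either comparison by limma. Neither did any of 4 plasma membrane proton pumps, which energize proton-coupled uptake. An unadjusted *p* under 0.05 (limma) was found for 2 of the 17 and 0 of the 4 upon ergosterol, and for the same counts upon *S. indica* lipids. Over all transcripts tested the shares were 19.7% and 15.3%. Of 49 other NRT1/PTR and peptide transporters, 4 rose upon both treatments, and of 30 potassium transporters and channels 1 did, beside 2.85% of all transcripts tested that rose upon ergosterol and 3.29% upon *S. indica* lipids. The count of potassium transporters is close to these shares. Its 1 member, 6HG0612700.1, averaged 0.262 TPM in the solvent control and reached the minimum for the test only through the treated libraries, so that it had to differ. The water channel family under other words matched 1 transcript, which was not tested.

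The 4 that rose among the peptide transporters are 6HG0547800.1 and the loci 6HG0606340, 6HG0606350 and 6HG0606430, with similar numbers. 6HG0606340.1 had means of 1.32, 8.82 and 4.95 TPM (solvent control, ergosterol, *S. indica* lipids), with SD of 0.287, 2.04 and 1.08, and log2FC of 2.07 (limma, adjusted *p* = 0.000400, SE 0.20) and 1.35 (adjusted *p* = 0.00249, SE 0.19). 6HG0547800.1 and 6HG0606350.1 had log2FC of 1.14 and 2.18 in the ergosterol comparison and of 1.38 and 1.72 in that of *S. indica* lipids. 6HG0606430.1 averaged 0.437 TPM in the solvent control and, like the potassium transporter, was tested only because of its treated libraries.

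In sulfate assimilation, 1 of 24 tested transcripts rose upon both treatments, a share close to those of all transcripts tested given above. It was the phosphoadenosine phosphosulfate reductase 2HG0142030.2, a class of enzyme that reduces activated sulfate. Its means were 252, 442 and 474 TPM (solvent control, ergosterol, *S. indica* lipids), with SD of 41.2, 13.7 and 56.4, and log2FC of 0.82 (limma, adjusted *p* = 0.00595, SE 0.13) and 0.91 (adjusted *p* = 0.00177, SE 0.12). Among 29 tested transcripts with words of phosphate starvation, 2 rose upon both treatments, beside 2.85% and 3.29% of all transcripts tested. The loci of these 2 carry consecutive numbers. They are 5HG0499000.1, described as purple acid phosphatase, a class of enzyme that releases phosphate from organic compounds, and 5HG0499010.1, described as an inactive protein like this class. Their log2FC were 1.30 and 1.01 upon ergosterol and 1.45 and 1.16 upon *S. indica* lipids.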

How the data were processed

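The authors trimmed reads with Trimmomatic 0.39, checked them with FastQC and estimated abundances with kallisto 0.46.1, and the deposited table gives TPM for each of 10 libraries. It also holds log2 fold changes and q-values from the authors' own comparisons with sleuth, which were not used. After 5420 repeated lines with the same TPM were dropped, the TPM of a library sum to 1000000. Values were taken as log2(TPM + 1). Transcripts that averaged 1 TPM or more over the libraries, 18330 in all, were fitted with limma 3.58.1 (R 4.3.3), with 1 mean per treatment and a variance trend, and adjusted by the Benjamini-Hochberg method. sleuth needs files other than TPM and was not rerun. The fit was tested on simulated data. TPM hold no depth, so no counting interval is given.

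Water channels with an adjusted *p* of at most 0.05 in either comparison with the solvent control (at most 12) and the 6 most abundant were named, and of each nutrient transporter family those passing (at most 8) and the 2 most abundant. Members, lists and tests were chosen with earlier results of these data known. Identifiers matched 0 entries of the gene table at hand, so positions and sequences are not given. Other transcripts were named for a count or a difference after their values were seen. Alternatives were pseudocounts of 0.1 and 0.5, no minimum, a minimum of 5 TPM, median-ratio scaling, quantile normalization, only the groups compared, no trend, weighted libraries, a replicate block, TPM per locus, a log2FC limit of 1, and each library left out.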

Additional observations from a re-analysis of the deposited data

Results flagged for a closer look

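In the *S. indica* lipid libraries, the water channel HORVU.MOREX.r3.2HG0188290.1 had 1 library apart from the rest, at 214 TPM beside 184, 185 and 188 TPM. The gap to the nearest library was 0.871 of the range of the 4 libraries, above the critical value at 95% of Dixon's test. It was the only such group among the 28 sets of 4 *S. indica* lipid libraries checked (21 named transcripts and 7 sums), where chance alone gives about 5% of sets.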

How the results depend on the processing

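Counts of members past the test are given as water channels upon ergosterol, water channels upon *S. indica* lipids, nutrient transporters upon ergosterol and nutrient transporters upon *S. indica* lipids, and were 5, 4, 5 and 7. They were 1, 1, 0 and 2 with no minimum abundance, where 16, 9, 18 and 18 had an unadjusted *p* under 0.05 (limma) and more transcripts share the adjustment. Of all 37962 transcripts, 0.124% upon ergosterol and 0.14% upon *S. indica* lipids were then called lower, and 0.772% and 0.888% higher. With a log2FC limit of 1 they were 0, 0, 2 and 3. Array weights gave 14 and 13 upon ergosterol, 1 of the 14 higher and 1 of the 13 lower, beside 8.47% of all transcripts tested that were then called lower and 6.59% higher. Median-ratio scaling gave 1 and 2 water channels, beside 0.284% and 0.502% of all transcripts tested called lower. No trend gave 2 and 2, beside 0.349% and 0.486%. A fit of only the groups compared gave 1 water channel and 3 nutrient transporters upon ergosterol, beside 0.464% called lower and 2.28% called higher. The cause was not tested. With single libraries left out the counts were 0 to 5, 1 to 4, 1 to 7 and 5 to 8. Of all transcripts tested, 0.115% to 1.01% were then called lower upon ergosterol and 0.267% to 0.529% upon *S. indica* lipids. Those called higher were 1.39% to 2.96% and 2.02% to 3.24%.

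With the replicate block the counts were 3, 2, 4 and 4. Of all transcripts tested, 0.818% upon ergosterol and 0.327% upon *S. indica* lipids were then called lower, and 2.42% and 2.01% higher. *S. indica* lipid replicate 4 has no partner number, so the block also takes this library out, and without it alone the counts were 5, 2, 6 and 5. Correlations of deviations from the group means over 9 pairs of libraries with the same number were −0.188 to 0.196. For libraries of different number and group they were −0.240 to 0.291. With so few libraries per group, these values cannot show whether samples with the same number shared plants or a harvest.

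Of 439 refits of the 21 named values past the test, 318 kept the call, 121 lost it and 0 changed direction. Of 441 refits of the 21 others, 18 gained a call and 12 changed sign. In the latter, 3HG0282010.1 upon ergosterol had log2FC of 0.037 with median-ratio scaling and 0.13 with array weights. With single libraries left out, log2FC upon ergosterol were −0.17 to 0.061 for 3HG0282010.1, −0.11 to 0.14 for 2HG0212270.1 and −0.037 to 0.26 for 6HG0591170.1. Upon *S. indica* lipids they were −0.14 to 0.023 for 1HG0056390.1, −0.25 to 0.081 for 5HG0529600.1, −0.050 to 0.25 for 6HG0591170.1 and −0.37 to 0.14 for 6HG0595580.1. The unknown depth limits all values of low abundance.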
